A study of Homo sapiens with 16 samples.

Results

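The MYC and MAX/MXD network was read as 8 genes chosen by name from the 26364 genes in each count table. They are MYC and MYCN, their shared partner MAX, and the antagonists MXD1, MXI1, MXD3, MXD4 and MNT. All 8 were counted in every one of the 16 libraries and passed the filter on low counts in both cell lines.

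MYC and MYCN are transcription factors that bind DNA only as a dimer with MAX, at a short sequence called the E-box (CACGTG), and raise the transcription of genes for ribosome assembly, nucleotide synthesis and energy metabolism. The MXD proteins and MNT also dimerize with MAX, occupy the same sequence and bring in the SIN3 corepressor with its histone deacetylases, so they oppose MYC at shared targets. MYC itself has long been known as a gene that estrogen induces in breast cancer cells.

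Bulk RNA-seq was done in Ishikawa cells, an endometrial adenocarcinoma line, and in T-47D cells, a breast ductal carcinoma line. All groups, including the 0 h groups, were kept for 3 days in phenol-red-free medium with charcoal-stripped serum, which removes steroid hormones. The 3 days are from the labels, and the study's methods give a longer time in such medium. Cells then received 10 nM 17β-estradiol (E2, the main ovarian estrogen) for 2, 4 or 8 h, or vehicle for the 0 h groups, with 2 replicates per group. The labels name no engineered allele, and each tissue is represented by 1 line. They also do not say whether replicates were separate cultures, so every p-value measures the spread between these libraries, which may be technical. In bulk RNA, a change in the number of cells that express a gene cannot be told apart from a change in RNA per cell.

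Libraries held 41177912 to 58918642 counts in Ishikawa cells and 41223813 to 64148903 in T-47D cells. Most markers fitted the labels. GATA3 and SPDEF, factors of luminal breast cells, were at 1020 to 1228 and 216 to 328 CPM (counts scaled to library size) in T-47D libraries and below 1 CPM in Ishikawa libraries, while SOX17 and EMX2, factors of the uterine epithelium, were at 39.3 to 46.9 and 89.7 to 114 CPM in Ishikawa libraries and at 0 in T-47D libraries. PAX2, also on the endometrial list, went against its label, at or near 0 in Ishikawa libraries and at 0.693 to 1.80 CPM in T-47D libraries. GREB1, a direct target of the estrogen receptor, had risen by 1.65 on the log2 scale (SE 0.12) at 8 h in Ishikawa cells and by 2.15 (SE 0.05) in T-47D cells. Summed levels of marker lists for other cell types were 0.559 to 1.36 CPM for leukocytes, 5.06 to 8.36 for endothelium (nearly all VWF) and 150 to 270 for stroma (nearly all COL1A1) in Ishikawa libraries, and 1.39 to 2.10, 0.0408 to 0.214 and 72.2 to 93.1 in T-47D libraries. The Ishikawa libraries labelled 4 h and 8 h resembled each other: 2 of 15787 genes (0.0127%) passed an adjusted p of 0.05 between them in edgeR, and 554 had an unadjusted p under 0.05. Between the same times in T-47D cells, 533 of 15594 genes (3.42%) passed, and 2533 had an unadjusted p under 0.05. Results for MYC, MAX, MXD3 and MXD4 against 0 h are therefore also given with the 4 late Ishikawa libraries as 1 group. So is the MNT result from 2 h to 8 h. All other Ishikawa values, including the gene lists, the ratio and the differences between lines, keep the separate time labels.

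On GRCh37, the build of the deposited counts, MYCN is at chr2:16080672-16087129, MAX at chr14:65472892-65569413, MXD1 at chr2:70124820-70170077, MXI1 at chr10:111967363-112047123, MXD3 at chr5:176728462-176739758, MXD4 at chr4:2249159-2263836 and MNT at chr17:2287367-2304398.

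RefSeq promoter windows of 250 bases before and 50 after the start were matched by symbol for MYCN, MAX and the 5 antagonists, 7 of the 8 members. The E-box, CACGTG, which reads the same on both strands, stood in the window of 2 of these 7 genes, MXD4 and MNT, and in 8.77% of the 27305 genes in the table. The 3 stretches shown here are upstream of MXD4, which fell with E2 in both lines, of MNT, which passed the test in 1 comparison over time per line, and of MXD3, which fell in Ishikawa cells but not detectably in T-47D cells. They were taken from the RefSeq table for GRCh38.p14, located in GRCh37 by exact match, and cut to the bases outside annotated exons. All are on the minus strand and are written 5′ to 3′ toward the gene, and capitals mark CACGTG.
MXD4 upstream, 250 bases, chr4:2263837-2264086: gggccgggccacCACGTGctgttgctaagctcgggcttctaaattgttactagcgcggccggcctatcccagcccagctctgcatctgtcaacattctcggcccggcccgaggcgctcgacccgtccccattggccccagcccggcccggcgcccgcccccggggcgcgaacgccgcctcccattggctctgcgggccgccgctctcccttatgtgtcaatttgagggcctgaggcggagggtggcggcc
MNT upstream, 206 bases, chr17:2304399-2304604: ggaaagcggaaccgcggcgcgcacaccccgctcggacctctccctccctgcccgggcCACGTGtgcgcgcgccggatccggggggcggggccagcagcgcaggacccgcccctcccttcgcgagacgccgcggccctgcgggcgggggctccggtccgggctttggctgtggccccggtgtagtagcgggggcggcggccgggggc
MXD3 upstream, 245 bases, chr5:176739759-176740003: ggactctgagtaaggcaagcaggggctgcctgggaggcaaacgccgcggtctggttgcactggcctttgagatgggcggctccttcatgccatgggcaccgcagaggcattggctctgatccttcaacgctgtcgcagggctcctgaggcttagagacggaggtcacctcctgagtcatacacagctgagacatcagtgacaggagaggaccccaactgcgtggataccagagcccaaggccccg
Counted from the start, with -1 as the last base before it, the E-box of MXD4 began at -238 and that of MNT at -193. The full estrogen response element, GGTCA followed by any 3 bases and TGACC, which also reads the same on both strands, was in the window of none of the 7 genes and in 0.0732% of all genes in the table. These matches describe the letters of the windows and do not show binding.

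Before E2, the lines differed most in MYC. At 0 h, MYC was at 114 and 116 CPM in the Ishikawa libraries and at 5.70 and 4.83 CPM in the T-47D libraries. The groups were far apart, with Ishikawa cells 21.8-fold higher (log2 difference -4.45 for T-47D minus Ishikawa, SE 0.10, adjusted p = 1.63e-19, edgeR quasi-likelihood test). MYCN, the neural relative of MYC, was at 3.24 and 3.84 CPM in Ishikawa cells and at 0.185 and 0.297 CPM in T-47D cells, where it rested on 8 and 12 counts (log2 difference -3.87, SE 0.37, adjusted p = 4.79e-09). In all, 6 of the 8 members differed at 0 h, 2 higher and 4 lower in T-47D cells, beside 81.9% of the 17090 genes tested (39.5% higher and 42.4% lower), so a difference between these lines was the common case. MXI1 (-0.88, SE 0.07) and MNT (-0.33, SE 0.09) were also lower in T-47D cells, and MXD3 (0.99, SE 0.10) and MXD4 (0.45, SE 0.05) were higher. MNT lost this call without replicate 2 of the Ishikawa 0 h group (-0.20, adjusted p = 0.0557). MAX (0.12, SE 0.06, adjusted p = 0.0814) and MXD1 (-0.19, SE 0.10, adjusted p = 0.102) did not pass. MAX passed under RLE scaling (0.15, adjusted p = 0.0371) and without any 1 of the late Ishikawa libraries (adjusted p 0.0384 to 0.0444). The cell line cannot be told apart from the culture, handling and library preparation of that line.

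**Figure D1:**
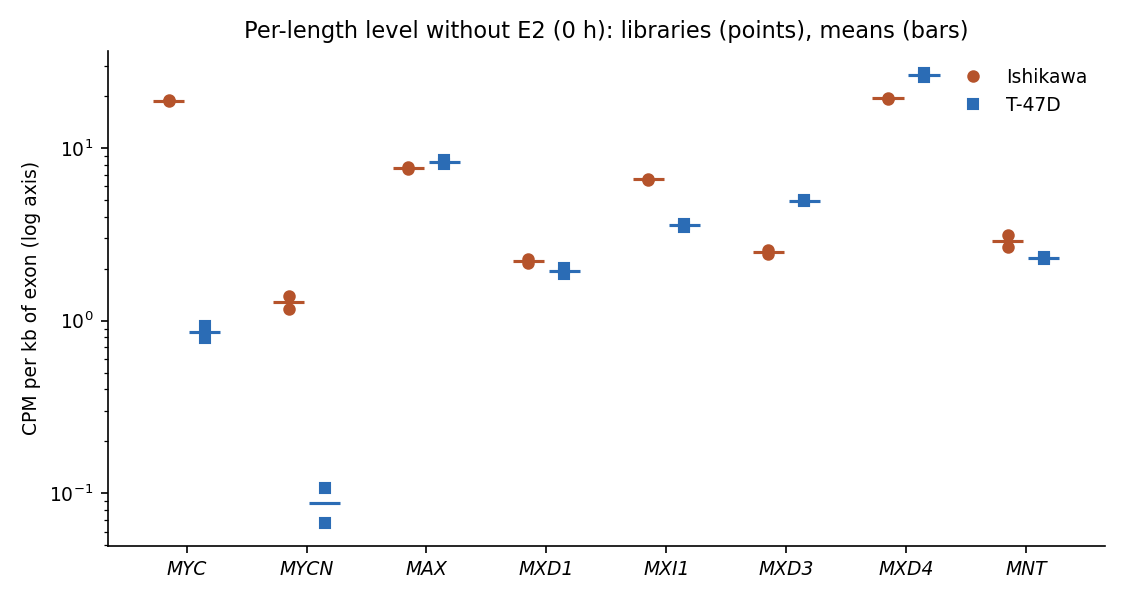
Level of each member at 0 h per kilobase of annotated exon (CPM per kb, log axis), with a point for each of 2 libraries per line and a bar for the mean. MYC stands near MXD4 in Ishikawa cells (18.9 and 19.5 CPM per kb) and far below it in T-47D cells (0.862 and 26.5).

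Levels of different genes were set side by side per kilobase of exon. In Ishikawa cells at 0 h, MXD4 was highest at 19.5 ± 0.155 CPM per kb (SD, n = 2), followed by MYC at 18.9 ± 0.259, MAX at 7.63 ± 0.143, MXI1 at 6.59 ± 0.0797, MNT at 2.90 ± 0.330, MXD3 at 2.49 ± 0.105, MXD1 at 2.21 ± 0.0812 and MYCN at 1.28 ± 0.156. No neighbours in this order overlapped between libraries, but MNT and MXD3 changed places when the longest transcript was the length (5.12 and 5.19). In T-47D cells, the order was MXD4 at 26.5 ± 0.895, MAX at 8.31 ± 0.323, MXD3 at 4.94 ± 0.0454, MXI1 at 3.57 ± 0.111, MNT at 2.31 ± 0.0429, MXD1 at 1.94 ± 0.113, MYC at 0.862 ± 0.102 and MYCN at 0.0874 ± 0.0288. MXD4 was thus the most abundant antagonist transcript in both lines, and MYC stood next to it in Ishikawa cells but above only MYCN in T-47D cells.

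With E2, MYC rose in both lines, early and steeply in T-47D cells and later and less steeply in Ishikawa cells. In T-47D cells, MYC went from 5.70 and 4.83 CPM without E2 to 27.3 and 33.0 after 2 h, then to 29.8 and 31.1 after 4 h and to 32.6 and 36.0 after 8 h. Every treated library lay well above both 0 h libraries, and the 2 h and 8 h groups overlapped. The fold was 5.68 at 2 h (log2 2.51, SE 0.11, adjusted p = 1.64e-11), 5.75 at 4 h (2.52, SE 0.11, adjusted p = 1.19e-11) and 6.50 at 8 h (2.70, SE 0.11, adjusted p = 3.19e-12). From 2 h to 8 h, it differed by 0.20 (SE 0.09, adjusted p = 0.159), which did not pass. In mean CPM, the gain at 2 h was 85.7% of the gain at 8 h. In Ishikawa cells, MYC was at 114 and 116 CPM without E2, at 127 and 128 after 2 h, at 169 and 157 after 4 h and at 152 and 166 after 8 h. The groups did not overlap with 0 h at any time, but the change at 2 h was small (0.15, SE 0.06, adjusted p = 0.216). It passed at 4 h (0.50, SE 0.06, adjusted p = 5.01e-05) and 8 h (0.46, SE 0.06, adjusted p = 0.000109), and with the 4 late libraries as 1 group (0.48, SE 0.05, adjusted p = 7.48e-06). From 2 h to 8 h, MYC rose by 0.31 (SE 0.06, adjusted p = 0.0136) in Ishikawa cells, a call lost without either 2 h library or replicate 2 of 8 h (adjusted p up to 0.198).

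MYC lies at chr8:128747680-128755197 on the plus strand of GRCh37. The difference between the lines in its response was tested directly over all 16 libraries. It was 2.37 on the log2 scale at 2 h (SE 0.13, adjusted p = 1.95e-10), 2.03 at 4 h (SE 0.13, adjusted p = 1.5e-09) and 2.24 at 8 h (SE 0.12, adjusted p = 3.08e-10), larger in T-47D cells each time. In CPM the order was the same at 2 h, when Ishikawa cells had gained 11.9 CPM and T-47D cells 24.9. It was the other way later: by 4 h Ishikawa cells had gained 47.3 CPM and T-47D cells 25.2. By 8 h Ishikawa cells had gained 43.6 CPM over a high starting level and T-47D cells 29.0 CPM over a low one. After 8 h of E2, MYC in T-47D cells was still at 29.8% of its level in untreated Ishikawa cells, and the gap between the lines had gone from 21.9-fold in mean CPM at 0 h to 4.63-fold at 8 h. CASC11, a non-coding gene on the opposite strand that shares 194 exon bases with MYC, had 0 to 12 counts per library.

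**Figure D2:**
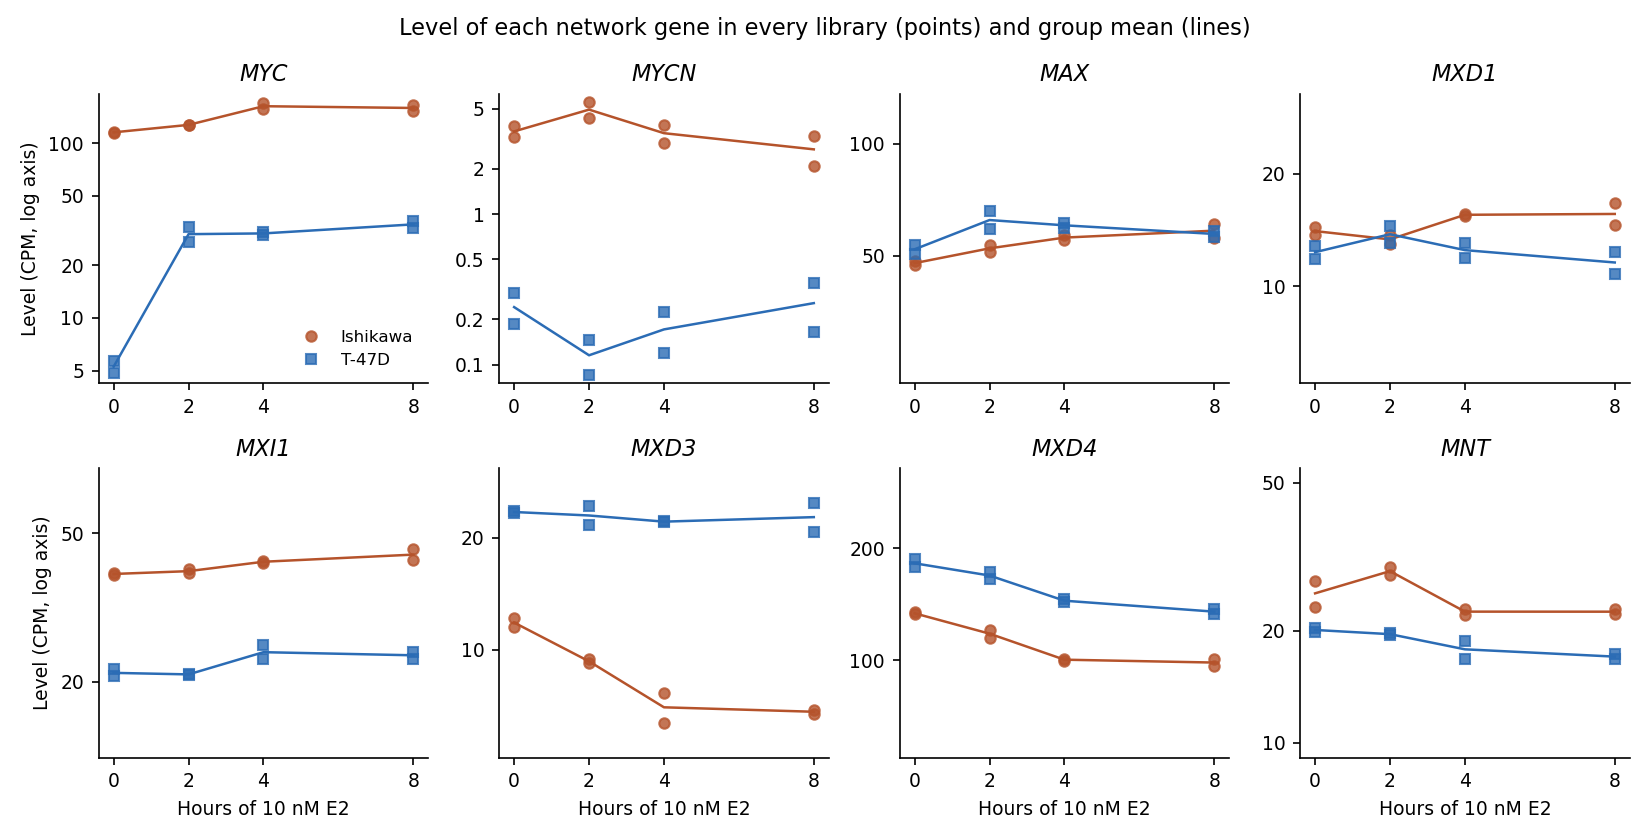
CPM of each member (log axis, scales differ between panels) against hours of 10 nM E2, with circles for Ishikawa and squares for T-47D libraries and lines through the means of 2 replicates. MYC jumps from about 5 to 30 CPM by 2 h in T-47D cells, MXD4 falls in both lines, and MXD3 falls from 11.8 to 6.81 CPM in Ishikawa cells.

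Over the network, no member passed at 2 h in Ishikawa cells in edgeR or in DESeq2, where 4.35% of all genes passed in edgeR (2.61% higher and 1.74% lower). An unadjusted p under 0.05 in edgeR was found for 5 of the 8. That threshold is looser, its share over all genes is not given here, and the 2 figures cannot be compared. At 4 h, 4 of the 8 passed, beside 14.3% of all genes (7.66% higher and 6.6% lower), and at 8 h again 4, beside 22.1% (12% higher and 10.1% lower). They were MYC and MAX, which rose, and MXD3 and MXD4, which fell, at both times, and these 4 also passed with the late libraries as 1 group. From 2 h to 8 h, 3 members passed, 1 higher and 2 lower, beside 2.24% of all genes (1.06% higher and 1.17% lower). In T-47D cells, 2 of 8 rose at 2 h, beside 9.3% of all genes called (4.9% higher and 4.4% lower). At 4 h there, 2 rose and 1 fell, beside 21.5% called (11.1% higher and 10.4% lower). At 8 h, 1 rose and 2 fell, beside 29.7% called (15.4% higher and 14.3% lower), and from 2 h to 8 h 1 fell, beside 16.8% (9.53% higher and 7.23% lower). With 8 genes, 1 call is already a larger share than many of these backgrounds.

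A difference between lines in the response passed for 1 member at 2 h, beside 2.67% of all genes (1.4% larger and 1.28% smaller in T-47D cells). It passed for 2 members at 4 h, beside 6.03% (3.21% and 2.83%), and for 2 at 8 h, beside 10% (5.32% and 4.7%). These were MYC each time and MXD3 at the later times. The median of the 8 log2 fold changes at 8 h was -0.0080 in Ishikawa and 0.024 in T-47D cells, beside -0.0088 and 0.0030 over all genes tested, since members moved in both directions. Adjusted p-values are Benjamini-Hochberg values over all genes in the fit.

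**Figure D3:**
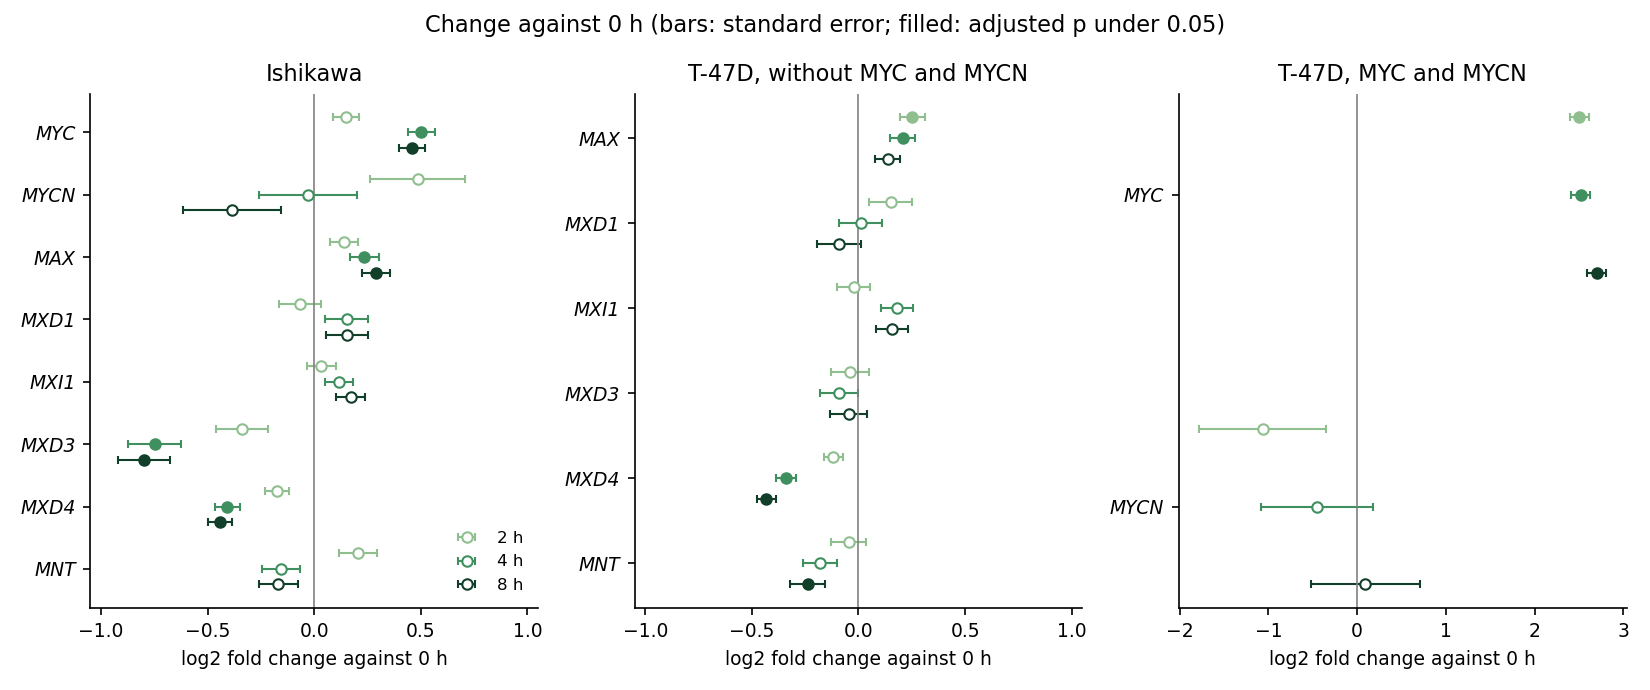
Log2 fold change of each member against 0 h at 2, 4 and 8 h (points; bars are SE; filled points have an adjusted p under 0.05), for Ishikawa cells, for T-47D cells, and for MYC and MYCN in T-47D cells on a wider axis. MYC lies at 2.51 to 2.70 in T-47D cells and MXD4 left of 0 in both lines.

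MAX, the shared partner of MYC and its antagonists, rose slightly in both lines. In Ishikawa cells, it was at 48.4 and 47.1 CPM without E2, at 51.2 and 53.4 after 2 h, at 55.1 and 56.7 after 4 h and at 60.9 and 55.8 after 8 h. In T-47D cells, it was at 53.4 and 50.6 CPM without E2, at 58.9 and 65.7 after 2 h, at 61.1 and 59.5 after 4 h and at 56.2 and 58.1 after 8 h. The treated libraries lay above the 0 h libraries in both lines, with the highest mean at 8 h in Ishikawa and at 2 h in T-47D cells. The change passed in Ishikawa cells at 4 h (0.24, SE 0.07, adjusted p = 0.028) and 8 h (0.29, SE 0.07, adjusted p = 0.00626), and in T-47D cells at 2 h (0.25, SE 0.06, adjusted p = 0.0092) and 4 h (0.21, SE 0.06, adjusted p = 0.0163) but not 8 h (0.14, SE 0.06, adjusted p = 0.0935). As 1 late group, the Ishikawa change was 0.26 (SE 0.06, adjusted p = 0.00344). Each of these calls could be lost when 1 library was left out, though the change then stayed positive. At 4 h in Ishikawa cells the call was lost without any 1 of 5 libraries, replicate 2 of 0 h and both of 2 h and 4 h (adjusted p 0.0581 to 0.127), and at 8 h without replicate 1 of 8 h (0.23, adjusted p = 0.072). In T-47D cells it was lost at 2 h without replicate 2 of 0 h (0.23, adjusted p = 0.0692) or of 2 h (0.18, adjusted p = 0.203), and at 4 h without replicate 2 of 0 h (0.18, adjusted p = 0.11) or replicate 1 of 4 h (0.19, adjusted p = 0.112).

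MXD4, the most abundant antagonist transcript, fell in both lines. In Ishikawa cells, MXD4 was at 133 and 135 CPM without E2, at 121 and 115 after 2 h, at 101 and 99.7 after 4 h and at 101 and 96.3 after 8 h. In T-47D cells, it was at 178 and 187 CPM without E2, at 166 and 172 after 2 h, at 143 and 146 after 4 h and at 137 and 133 after 8 h. In both lines every treated library was below both 0 h libraries. The decrease did not pass at 2 h (-0.17, SE 0.06, adjusted p = 0.113 in Ishikawa and -0.12, SE 0.05, adjusted p = 0.121 in T-47D cells). At 8 h it was -0.44 (SE 0.06, adjusted p = 7.69e-05) in Ishikawa and -0.43 (SE 0.05, adjusted p = 9.73e-07) in T-47D cells, so that the mean level had dropped by 26.3% and 25.8%. At 4 h it was -0.41 (SE 0.06, adjusted p = 0.000185) and -0.34 (SE 0.05, adjusted p = 2.48e-05), and with the late Ishikawa libraries as 1 group -0.42 (SE 0.05, adjusted p = 8.43e-06). The difference between the lines at 8 h was 0.0076 with an SE of 0.07 (adjusted p = 1), and its sign turned under RLE scaling and in DESeq2 (-0.025 in both). From 2 h to 8 h, MXD4 fell by 0.31 in T-47D cells (SE 0.05, adjusted p = 0.000101) and by 0.27 in Ishikawa cells (SE 0.06, adjusted p = 0.0199), the latter call lost without either 2 h library or replicate 2 of 8 h (adjusted p up to 0.339).

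MXD3, an antagonist known from proliferating cells in S phase, fell in Ishikawa cells and gave no call in T-47D cells. In Ishikawa cells, MXD3 was at 11.5 and 12.2 CPM without E2, at 9.42 and 9.19 after 2 h, at 6.36 and 7.64 after 4 h and at 6.72 and 6.91 after 8 h. All treated libraries lay below both 0 h libraries. The change was -0.34 at 2 h (SE 0.12, adjusted p = 0.151), -0.75 at 4 h (SE 0.12, adjusted p = 0.00085) and -0.80 at 8 h (SE 0.12, adjusted p = 0.000376), and -0.77 (SE 0.10, adjusted p = 4.1e-05) with the late libraries as 1 group. From 2 h to 8 h, MXD3 changed by -0.46 (SE 0.12, adjusted p = 0.0679), which did not pass here but did under 6 of 11 alternative settings. In T-47D cells, MXD3 was at 23.3 and 23.6 CPM without E2, at 24.3 and 21.6 after 2 h, at 22.0 and 22.1 after 4 h and at 24.7 and 20.6 after 8 h. These groups overlapped with 0 h at 2 h and 8 h, and the changes were between -0.09 and -0.04 with an SE of 0.09. The difference between lines passed at 4 h (0.67, SE 0.15, adjusted p = 0.00842) and 8 h (0.75, SE 0.15, adjusted p = 0.00197), and at 4 h not without replicate 1 of the Ishikawa 4 h group (0.52, adjusted p = 0.0883). MXD3 shares 926 exon bases with RAB24 on the same strand and 1148 with PRELID1 on the opposite strand, and whether the counting used strand is not given in the sources used here. At 8 h, RAB24 changed by -0.35 in Ishikawa cells (adjusted p = 0.0075) and by -0.18 in T-47D cells (adjusted p = 0.0375), and PRELID1 by 0.11 in Ishikawa cells (adjusted p = 0.297) and by 0.21 in T-47D cells (adjusted p = 0.0201). Their part in the MXD3 result was not tested.

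MNT, a broadly expressed antagonist outside the MXD family, moved little. In T-47D cells, MNT was at 19.8 and 20.4 CPM without E2, at 19.5 and 19.7 after 2 h, at 16.8 and 18.8 after 4 h and at 17.3 and 16.8 after 8 h. The change at 8 h was -0.24 (SE 0.08, adjusted p = 0.0349), and it missed the threshold without any 1 of the 6 libraries of 0, 2 and 8 h (adjusted p 0.053 to 0.154). In Ishikawa cells, MNT was at 23.2 and 27.2 CPM without E2, at 28.2 and 29.7 after 2 h, at 22.1 and 22.9 after 4 h and at 22.2 and 22.9 after 8 h. It was highest at 2 h, and no change against 0 h passed (0.21, -0.16 and -0.17, SE 0.09 each), but without replicate 1 of 0 h the changes at 4 h (-0.27, adjusted p = 0.0458) and 8 h (-0.28, adjusted p = 0.029) did. From 2 h to 8 h it fell by 0.37 (SE 0.09, adjusted p = 0.0405), a call lost without any 1 of the 4 libraries compared (adjusted p 0.133 to 0.36) and kept with the late libraries as 1 group (adjusted p = 0.00802).

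MXD1 and MXI1, antagonists linked to differentiation, passed in no comparison with 0 h in either line. MXD1 ranged from 13.01 to 16.7 CPM in Ishikawa and from 10.8 to 14.5 CPM in T-47D libraries. MXI1 ranged from 38.6 to 45.3 CPM in Ishikawa and from 20.6 to 25.02 CPM in T-47D libraries, and its changes at 8 h were 0.17 (SE 0.07, adjusted p = 0.084) and 0.16 (SE 0.08, adjusted p = 0.138). MYCN also passed in no comparison over time. It had 94 to 243 counts per Ishikawa library, highest at 2 h with 5.54 and 4.33 CPM. Its change from 2 h to 8 h there was -0.87 (SE 0.23, adjusted p = 0.0588), and -1.23 to -0.60 when 1 library was left out. That change passed under 4 of 11 alternative settings. In T-47D cells it had 4 to 17 counts per library, and its change at 8 h, 0.09 with an SE of 0.61, was too imprecise to show a moderate response at this depth. Reads may also be shared where genes overlap: MXD1 shares 237 exon bases with SNRNP27 on the same strand, MAX 822 with FNTB and MNT 1065 with a non-coding gene, both on the opposite strand.

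The ratio of MYC to its antagonists combined these movements. It is the per-kilobase level of MYC over the sum of MXD1, MXI1, MXD3, MXD4 and MNT in the same library, a ratio of mRNAs and not of proteins, given with no test. In Ishikawa cells, the ratio stood at 0.564 and 0.557 without E2, at 0.656 and 0.676 after 2 h, at 0.983 and 0.903 after 4 h and at 0.859 and 0.984 after 8 h. In T-47D cells, it stood at 0.0242 and 0.0198 without E2, at 0.121 and 0.143 after 2 h, at 0.145 and 0.150 after 4 h and at 0.162 and 0.187 after 8 h. Every treated library exceeded the 0 h libraries of its line, and no T-47D library reached the lowest Ishikawa library. The mean ratio at 8 h was 0.922 ± 0.0888 (SD, n = 2) in Ishikawa and 0.175 ± 0.0173 in T-47D cells. MXD4 made up 50.8% to 58.4% of the antagonist sum in Ishikawa and 60.6% to 67.9% in T-47D libraries. Against MAX alone, MYC was at 2.42 to 3.14 in Ishikawa and at 0.0978 to 0.634 in T-47D libraries, so MYC mRNA exceeded MAX mRNA per kilobase in every Ishikawa library and in no T-47D library.

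**Figure D4:**
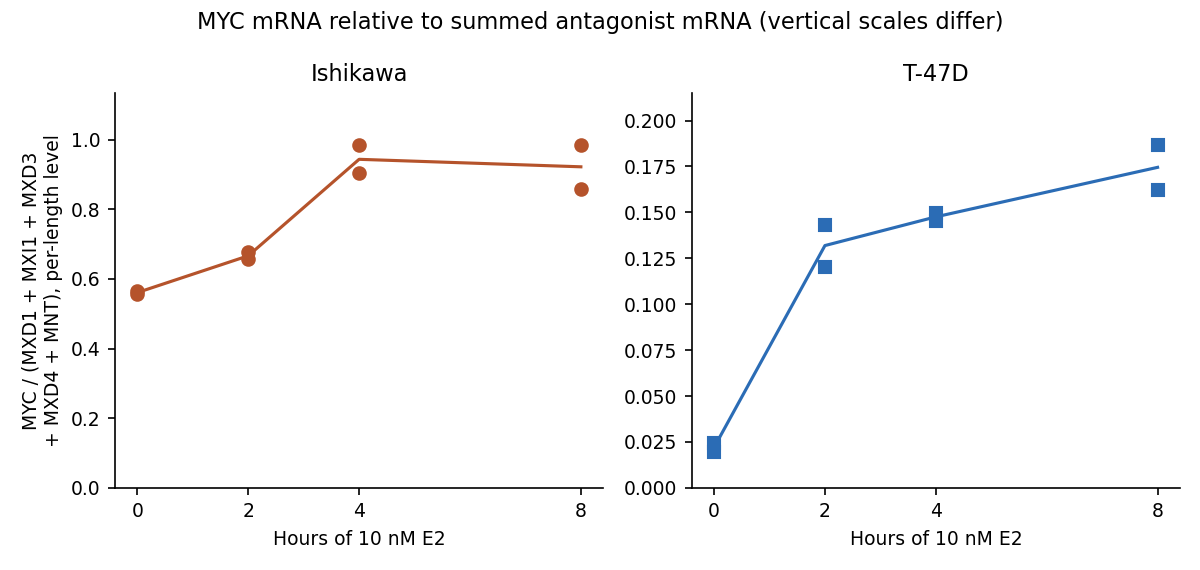
Ratio of the per-kilobase level of MYC to the summed level of its 5 antagonists against hours of 10 nM E2, with a point per library, lines through the means of 2 replicates, and vertical scales that differ between the lines. The ratio goes from about 0.56 to above 0.85 in Ishikawa and from about 0.02 to above 0.16 in T-47D cells.

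The known targets of MYC were followed as a list of 60 induced genes, mostly of ribosome assembly, nucleotide synthesis and metabolism, all of which were tested in both lines. In T-47D cells, 18 rose at 2 h, 47 rose and 3 fell at 4 h, and 52 rose and 1 fell at 8 h, with medians of 0.12, 0.32 and 0.46 on the log2 scale beside -0.0094, -0.0046 and 0.0030 over all genes. Of all genes tested in T-47D cells, 4.9%, 11.1% and 15.4% were higher and 4.4%, 10.4% and 14.3% lower at these times. In Ishikawa cells, 1 rose and 1 fell at 2 h, 39 rose and 2 fell at 4 h, and 38 rose and 2 fell at 8 h, with medians of 0.05, 0.29 and 0.26 beside -0.0023, 0.0047 and -0.0088. Of all genes tested there, 2.61%, 7.66% and 12% were higher and 1.74%, 6.6% and 10.1% lower, so the list's calls at 2 h in Ishikawa cells were near the background. At 2 h in T-47D cells, 42 of the 60 had not passed, and most had passed by 4 h in both lines. Most of these changes were small next to that of MYC in T-47D cells: the highest at 8 h with a mean of at least 50 counts were NOP56, a core protein of the box C/D particles that modify ribosomal RNA, from 102 and 102 CPM at 0 h to 186 and 178 at 8 h (0.83, SE 0.05, adjusted p = 5.19e-10), and EXOSC5, a subunit of the RNA exosome, from 8.27 and 7.94 to 14.6 and 14.0 CPM (0.82, SE 0.10, adjusted p = 4.22e-06). In Ishikawa cells they were NDUFAF4, an assembly factor of respiratory complex I, from 28.5 and 24.2 to 37.4 and 39.2 CPM (0.54, SE 0.09, adjusted p = 0.000799), and HK2, the hexokinase that begins glycolysis, from 105 and 105 to 146 and 153 CPM (0.51, SE 0.06, adjusted p = 2.28e-05). These values were near that of MYC itself in Ishikawa cells at 8 h (0.46, SE 0.06). SLC29A2, a nucleoside transporter, went the other way at 8 h in both lines (-0.43, SE 0.08, adjusted p = 0.00196 in Ishikawa and -0.19, SE 0.06, adjusted p = 0.0291 in T-47D cells), and MCM5, a subunit of the replicative helicase, fell in Ishikawa cells (-0.22, SE 0.05, adjusted p = 0.00879). In T-47D cells, MCM5 was higher at 8 h, at 88.9 and 82.9 CPM, than at 0 h, at 59.9 and 54.3 CPM.

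**Figure D5:**
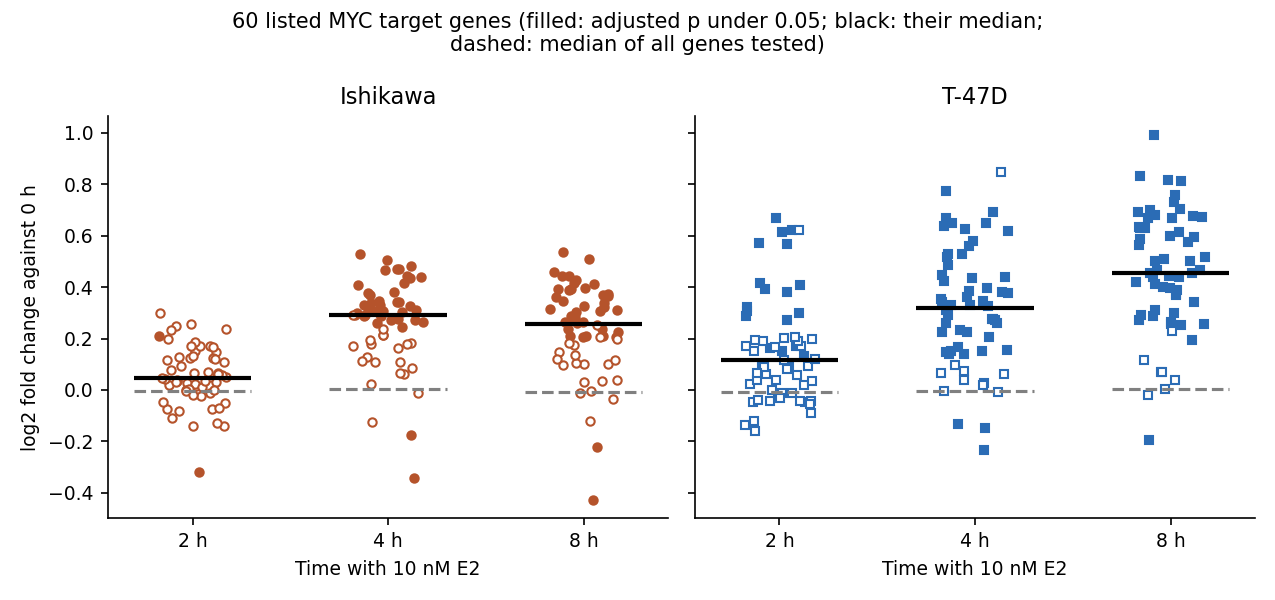
Log2 fold change against 0 h of the 60 listed MYC-induced genes (points, filled where the adjusted p was under 0.05), their median (black line) and the median of all genes tested (dashed line), by time and cell line. The list median goes from 0.05 (2 h) to 0.26 (8 h) in Ishikawa cells and from 0.12 to 0.46 in T-47D cells.

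The difference between lines at 8 h passed for 21 of these 60 genes with the higher log2 change in T-47D cells and for 2 with the higher change in Ishikawa cells (median 0.23, beside 0.02 over all genes, of which 5.32% were called higher and 4.7% lower in T-47D cells). The 2 exceptions were HK2 (-0.47, adjusted p = 0.000401) and ODC1, the first enzyme of polyamine synthesis and a classic MYC target (-0.31, adjusted p = 0.0403), which were named after their values were seen. ODC1 rose in Ishikawa cells at 8 h (0.28, adjusted p = 0.011) and was at -0.02 in T-47D cells (adjusted p = 0.816). At 0 h, 51 of the 60 were lower in T-47D than in Ishikawa cells and 4 were higher, with a median of -0.95 beside -0.05 over all genes, of which 42.4% were lower and 39.5% higher. CACGTG stood in the promoter window of 26 of the 48 list genes found in the RefSeq table (54.2%), and the list was drawn from known targets, so this share is a description of the list.

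Of 7 genes that MYC is known to repress, 4 fell and 1 rose at 8 h in T-47D cells, with a median of -0.36 beside 0.0030 over all genes, of which 14.3% fell and 15.4% rose. NDRG1, a differentiation-associated gene, fell from 114 and 112 CPM at 0 h to 44.7 and 42.6 at 8 h (-1.37, SE 0.05, adjusted p = 1.06e-12), and CDKN2B, the cyclin-dependent kinase inhibitor p15, fell from 101 and 112 to 63.6 and 66.8 CPM (-0.71, SE 0.06, adjusted p = 2.89e-08). CDKN1A, the inhibitor p21, and CEBPA, a differentiation factor, were the other two, named after their values were seen (-0.36, adjusted p = 0.00011, and -0.62, adjusted p = 2.58e-07). CCND1, which encodes cyclin D1 and is also a known estrogen target, rose in both lines at 8 h (0.43, SE 0.05, adjusted p = 3.11e-06 in T-47D and 0.39, SE 0.05, adjusted p = 9.49e-05 in Ishikawa cells). In Ishikawa cells, 1 rose and 1 fell at 8 h (median -0.13), near the 22.1% of all genes called there. The fall was GADD45A, a growth arrest gene (-0.25, SE 0.08, adjusted p = 0.0406). At 2 h, when MYC had not passed there, 1 rose and 2 fell, beside 4.35% of all genes called. The falls were GADD45A (-0.50, adjusted p = 0.00151) and CDKN1B (-0.24, adjusted p = 0.0375). At 4 h, 2 rose and 1 fell, beside 14.3% called, and CEBPA was among the rises (0.67, adjusted p = 0.0394). These genes at 2 h and 4 h were named after their values were seen. The difference between lines passed at 8 h for CDKN2B (-0.48, adjusted p = 0.00316), CEBPA (-1.09, adjusted p = 0.000231) and NDRG1 (-0.90, adjusted p = 0.00115). Of all genes, 4.7% were called lower and 5.32% higher in T-47D cells in this comparison. The value for CEBPA joins its fall in T-47D cells with a positive change in Ishikawa cells, 0.48 at 8 h (adjusted p = 0.105).

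Of 5 further genes whose proteins bind MAX or its relative MLX, MYCL, MGA, MLX, MLXIP and MLXIPL, only MYCL passed against 0 h, at 4 h in Ishikawa cells (-0.40, SE 0.10, adjusted p = 0.0113), and it was at -0.26 at 8 h (adjusted p = 0.0613) there and at -0.27 (adjusted p = 0.0552) in T-47D cells. The 1 call of 5 at 4 h in Ishikawa cells is near the 14.3% of all genes called there. MGA and MLX rose from 2 h to 8 h in T-47D cells (0.19, adjusted p = 0.0115, and 0.18, adjusted p = 0.0156). Of all genes, 9.53% were higher and 7.23% lower in that comparison.

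The genes whose 6 log2 fold changes against 0 h lay nearest to those of MYC were sought among 11901 genes with at least 50 counts on average in each line. By root mean square distance they were ADAMTS8 at 0.211, MYB at 0.342, SLC47A1 at 0.365, NPY1R at 0.386 and SEMA3G at 0.388, where the median gene was at 1.85. ADAMTS8, a secreted protease, was at 0.60 at 4 h and 0.68 at 8 h in Ishikawa cells and at 2.32, 2.25 and 2.39 at the 3 times in T-47D cells, where it had 10 to 87 counts per library. MYB, a transcription factor, went from 6.01 to 33.8 CPM in mean level by 2 h in T-47D cells (2.48, adjusted p = 2.44e-12) and did not pass in Ishikawa cells (0.48, adjusted p = 0.108). For MXD3, the nearest were LINC00174 at 0.0474, EXD3 at 0.0506 and PAQR6 at 0.0531, with the median gene at 0.496. EXD3 changed by -0.77 at 8 h in Ishikawa cells (adjusted p = 0.0026) and by -0.03 in T-47D cells (adjusted p = 0.831). The 3 changes of a line share its 0 h libraries, and likeness here is a description of these 6 values.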

How the data were processed

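Poly(A) RNA was sequenced from 16 libraries. Per the labels and the study's methods, the authors aligned reads to hg19 (GRCh37) with HISAT2, handled alignments with SAMtools and counted reads per UCSC Known Gene with featureCounts, and they deposited 1 table of raw counts per line. Tool versions, the strand setting and the treatment of multi-mapping reads are not given in the sources used here. Even values made up 71.2% to 74.6% of counts from 1 to 10, so a count need not be 1 fragment.

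From the deposited counts, genes were filtered with filterByExpr (15787 tested in Ishikawa, 15594 in T-47D and 17090 over both lines), scaled by TMM and tested with edgeR 4.0.16 (quasi-likelihood test, R 4.3.3, limma 3.58.1) with Benjamini-Hochberg adjustment over all genes tested and a threshold of 0.05. Each line was fitted over its 8 libraries with time as a factor, and differences between lines over all 16. SE is the absolute log2 fold change over the square root of F. CPM used TMM factors over all 16 libraries, and per-kilobase levels divided it by the union of GENCODE exons. The script was tested on simulated data. DESeq2 1.42.0, RLE scaling, other filters and thresholds, the replicate number as a block, fits of only the time points compared, halved counts, merged late Ishikawa libraries and leaving out each library were tried.

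All 8 members were tested in every comparison, but not every value that did not pass is printed. From each gene list, up to 2 genes per direction and line were named, by the largest change at 8 h among those past the threshold with a mean of at least 50 counts. The genes nearest to a member were ranked by root mean square distance over the 6 changes against 0 h. The members and lists were chosen with earlier results of these data known. No column was left unmapped.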

Additional observations from a re-analysis of the deposited data

Results flagged for a closer look

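The response of MYC to E2 differed between the cell lines when the difference was tested directly over 16 libraries with edgeR. It was larger in T-47D than in Ishikawa cells by 2.37 on the log2 scale at 2 h, 2.03 at 4 h and 2.24 at 8 h. MXD3 also differed between the lines, by 0.67 at 4 h and 0.75 at 8 h, where it had fallen in Ishikawa cells and had not passed the test in T-47D cells.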

How the results depend on the processing

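MYC and MXD4 in both lines, with MXD3 in Ishikawa cells, kept their calls at 4 h and 8 h against 0 h, and MYC at 2 h in T-47D cells, under every alternative tried. The number of members called from 2 h to 8 h in Ishikawa cells was least stable: 3 became 5 with DESeq2, with no filter, at an adjusted p under 0.1 and with a crossed replicate block (added after seeing the data, since 4 h and 8 h deviations correlated at -0.26), 0 at an adjusted p under 0.01, and 0 to 5 when 1 library was left out. Leaving out 1 library gave 1 to 2 members at 2 h in T-47D cells and 1 to 2 for the difference between lines at 4 h. Deviations of same-numbered libraries correlated at -0.26 to 0.0655 in Ishikawa and -0.0917 to 0.149 in T-47D cells, so no clear effect shared by a replicate number was seen. These values cannot tell whether same-numbered libraries were prepared together. The replicate block gave 4 Ishikawa and 3 T-47D members at 8 h and 6 at 0 h, as without it, and changed no other count. Without MNT, MYC over its antagonists was 0.613 at 0 h and 1.01 at 8 h in Ishikawa cells. MAX at 4 h in Ishikawa cells (0.23, adjusted p = 0.0881) and MNT at 8 h in T-47D cells (-0.24, adjusted p = 0.0561) missed the threshold with only the time points compared. The cause was not tested.

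Small values changed sign. For MXD4 the difference between lines at 8 h was -0.025 with DESeq2, -0.025 with RLE scaling, -0.0060 with no filter and -0.022 with only the time points compared, and -0.052 to 0.042 when 1 library was left out. With 1 library left out, the difference between lines was -0.060 to 0.025 for MAX at 4 h, -0.13 to 0.087 for MNT at 4 h and -0.20 to 0.012 at 8 h, -0.014 to 0.14 for MXI1 at 4 h and -0.089 to 0.015 at 8 h, and -0.16 to 0.92 for MYCN at 8 h. Changes in T-47D cells were -0.050 to 0.085 for MXD1 at 4 h and -0.18 to 0.0036 at 8 h, -0.12 to 0.048 for MXD3 at 2 h, -0.18 to 0.086 at 8 h and -0.15 to 0.11 from 2 h to 8 h, -0.041 to 0.019 for MXI1 at 2 h and -0.54 to 0.54 for MYCN at 8 h. MYCN in Ishikawa cells at 4 h was -0.26 to 0.16. MYCN in T-47D cells had the lowest counts of the members, 4 to 17 per library.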

Other observations

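Genes whose proteins work with MYC on chromatin were read as a list of 10 tested cofactors. At 8 h against 0 h, none passed in edgeR in Ishikawa cells, beside 22.1% of all genes, and 4 rose and 1 fell in T-47D cells, beside 29.7% of all genes called. In T-47D cells, KAT2A, a histone acetyltransferase, rose by 0.47, RUVBL1 and RUVBL2, a pair of ATPases of chromatin remodelling complexes, rose by 0.44 and 0.22, WDR5, a scaffold of histone methyltransferases, rose by 0.18, and the acetyltransferase KAT5 fell by 0.24 (all on the log2 scale). RUVBL2 and WDR5 were named after their values were seen.

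Of 8 genes of the SIN3 corepressor, through which the MXD proteins repress, 2 rose at 8 h in Ishikawa cells, and 2 rose and 1 fell in T-47D cells, both near the shares of 22.1% and 29.7% over all genes. In Ishikawa cells they were SIN3B, which rose at every time, by 0.47 at first (2 h), 0.35 next (4 h) and 0.27 at the end (8 h), and the deacetylase HDAC2 (0.23). In T-47D cells, the histone-binding subunit RBBP7 (0.25) and HDAC2 (0.15) rose and the deacetylase HDAC1 fell by 0.14. Among 14 genes that set the stability of MYC protein, the Ishikawa libraries of 8 h gave 3 rises against 0 h and no fall. Of all genes tested in that comparison, 12% were higher and 10.1% lower. The T-47D libraries of 8 h gave 5 rises and no fall, beside 15.4% of all genes higher and 14.3% lower. In T-47D cells, USP36, a nucleolar deubiquitinase, rose by 0.39 and the deubiquitinase USP37 by 0.38, and in Ishikawa cells PPP2R5A, a subunit of the phosphatase PP2A, rose by 0.27 and KIAA1524, an inhibitor of that phosphatase, by 0.26. The other calls, named after their values were seen, were UBE3C in Ishikawa cells and SKP2, USP28 and AURKA in T-47D cells, with rises of 0.23, 0.22, 0.17 and 0.14.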
